A study of Mus musculus with 23 samples.

Results

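The 10 genes described here encode enzymes that break down, convert or salvage purine and uridine compounds outside and inside intestinal epithelial cells, together with a receptor for adenosine. They are Entpd8, Entpd5, Enpp3, Nt5e, Adora2b, Ada, Pnp, Gda, Xdh and Upp1. They were chosen by name for their place in nucleotide metabolism, with their levels and q-values in both deposited comparisons already known, so these values are given as a description. All 10 symbols were found in both deposited tables, out of 22517 named genes in each, and all 10 were tested by the authors in both.

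RNA was sequenced from 9 libraries in 3 groups of 3, all from adult mice of a mixed B6;129 background that had received tamoxifen (1 to 2 mg on 5 days). Eed-null villus came from EedF/F mice with Villin-CRE, which acts throughout the intestinal epithelium. It is labelled null for Eed, which Polycomb repressive complex 2 (PRC2) needs to place the repressive histone mark H3K27me3. Wild-type villus came from EedF/F mice without Cre, so Cre and Eed loss differ together. Intestinal stem cells (ISC) came from Eed+/+ mice carrying Lgr5-EGFP-IRES-CREERT2 and were sorted for high GFP. All tissue is labelled as the proximal part of the intestine and was released with EDTA. Villus epithelium then went straight into TRIzol, whereas ISC came from crypts that were dissociated with TrypLE and sorted. Villus is mostly differentiated enterocytes, and ISC are the dividing cells that renew them. The first comparison, wild-type villus over ISC, sets differentiated beside stem cells, and genotype and handling differ together with cell type. The second, Eed-null over wild-type villus, asks what differs in villus labelled null for this PRC2 subunit.

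Each deposited value is 1 RPKM (a read count scaled by gene length and by library size) per group and gene. No value per library is printed, so neither the spread over the 3 libraries nor their depth can be given. Error enters only through the authors' q, and called means here that they tested the gene and listed q at or below 0.05. These are bulk samples, in which fewer cells of a type and less RNA per cell cannot be told apart. Eed itself had 3.00 RPKM in Eed-null villus and 9.17 RPKM in wild-type villus (q = 6.29e-06 in the authors' deposited table). Some Eed RNA thus remained in Eed-null villus, and neither Eed protein nor H3K27me3 was examined there. Villus had higher calls for all 9 enterocyte markers tested and lower calls for all 10 stem cell markers, so both labels matched their markers. The second table is on a lower scale: its wild-type villus values times 1.16193 equal those of the first. Over the 10048 genes with at least 1 RPKM in both villus groups, the median log2 ratio of Eed-null to wild type was -0.104.

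Extracellular ATP and ADP are broken down stepwise on cell surfaces. NTPDases (the Entpd family) and NPPs (the Enpp family) remove phosphates to leave AMP, and ecto-5'-nucleotidase (Nt5e, also called CD73) turns AMP into adenosine. Adenosine can bind G protein-coupled receptors such as the A2B receptor (Adora2b), or be deaminated to inosine by adenosine deaminase (Ada). Purine nucleoside phosphorylase (Pnp) releases the base, guanine deaminase (Gda, cypin) makes xanthine from guanine, and xanthine dehydrogenase (Xdh) makes urate. Uridine phosphorylase (Upp1) does for uridine what Pnp does for purine nucleosides. In the gut these enzymes process nucleotides from the diet, from shed cells and from microbes, and epithelial A2B receptors are known for stimulating chloride secretion.

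Promoters are shown for the 4 genes called in the Eed-null comparison, because PRC2 is known to bind CpG-rich promoters. Sequences run from 250 bases before to 50 bases after a start site annotated by RefSeq (build GRCm38.p6, another build than that of the expression tables). Capitals mark matches on either strand to 5 motifs. The core of the HNF4 site was searched as CAAAGT and the CDX2 site as TTTATNG. The GATA site was searched as AGATAA, the GC box as GGGCGG and the TATA box as TATAAA. Neighbouring GC boxes can overlap.

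Nt5e, chr9:88327359-88327658, plus strand: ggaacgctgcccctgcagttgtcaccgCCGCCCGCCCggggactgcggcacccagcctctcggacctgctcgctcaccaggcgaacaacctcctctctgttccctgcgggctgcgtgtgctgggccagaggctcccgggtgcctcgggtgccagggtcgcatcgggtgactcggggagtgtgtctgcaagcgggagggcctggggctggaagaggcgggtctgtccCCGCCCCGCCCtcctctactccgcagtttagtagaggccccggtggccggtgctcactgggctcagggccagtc
Ada, chr2:163750190-163750489, minus strand: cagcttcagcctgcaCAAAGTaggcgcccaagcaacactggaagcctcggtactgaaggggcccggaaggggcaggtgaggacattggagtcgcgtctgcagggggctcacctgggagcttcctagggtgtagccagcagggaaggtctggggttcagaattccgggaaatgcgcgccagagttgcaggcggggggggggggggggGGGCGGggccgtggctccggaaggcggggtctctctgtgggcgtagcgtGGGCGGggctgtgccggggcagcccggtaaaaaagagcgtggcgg
Gda, chr19:21472612-21472911, minus strand: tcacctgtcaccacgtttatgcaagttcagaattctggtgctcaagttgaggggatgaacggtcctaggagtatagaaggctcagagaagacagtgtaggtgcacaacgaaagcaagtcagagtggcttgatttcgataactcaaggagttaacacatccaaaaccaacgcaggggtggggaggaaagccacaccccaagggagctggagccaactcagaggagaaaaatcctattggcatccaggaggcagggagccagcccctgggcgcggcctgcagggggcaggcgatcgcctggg
Adora2b, chr11:62248734-62249033, plus strand: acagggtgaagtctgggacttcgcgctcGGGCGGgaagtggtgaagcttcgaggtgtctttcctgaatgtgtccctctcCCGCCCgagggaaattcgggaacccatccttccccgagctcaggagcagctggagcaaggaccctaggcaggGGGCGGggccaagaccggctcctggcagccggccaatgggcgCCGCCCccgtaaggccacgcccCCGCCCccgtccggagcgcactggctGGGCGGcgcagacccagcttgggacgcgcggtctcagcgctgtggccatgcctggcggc

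The Nt5e window holds 23 CpG dinucleotides at 71% GC, with an observed-over-expected CpG ratio of 0.608, and 4 GC boxes in 2 overlapping pairs. The Ada window has 20 CpGs at 68% GC, a ratio of 0.644, 2 GC boxes and 1 HNF4 core, and the Adora2b window has 27 CpGs at 70% GC, a ratio of 0.735 and 6 GC boxes. The Gda window differs from these, with 9 CpGs at 55% GC, a ratio of 0.408 and none of the 5 motifs. The median over 32851 promoter windows was 52.7% GC with a CpG ratio of 0.384. So Nt5e and Ada, called higher in Eed-null villus, and Adora2b, called lower, all had CpG-rich windows, while Gda, called higher, lay near the median. Members not called there also varied, with CpG ratios of 1.03 for Entpd5, 0.729 for Pnp and 0.196 for Entpd8. Whether CpG content goes with a call was not tested.

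Windows were found for 9 of the 10 genes, 11 windows in all since Upp1 has 3 start sites. A GC box was present in 6 of the 9 genes, against 35.7% of all windows. The HNF4 core was present in 3 genes (Ada, Entpd5 and Entpd8), against 14.4% of windows, and the CDX2 motif in 1 window of Upp1, against 10.9%. No member window held the GATA motif, found in 11.2% of windows, and Enpp3 alone held the TATA motif, found in 13.6%. The CpG ratio ran from 0.196 in Entpd8 to 1.03 in Entpd5, with Enpp3 at 0.407 and Pnp at 0.729, so the 9 genes share no promoter type by this measure. A match describes letters in the window and is not a bound site.

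All 10 genes were higher in wild-type villus than in ISC, by 2.31-fold to 355-fold. The largest ratios belonged to Nt5e, Enpp3 and Ada, and the smallest to Pnp. The place of Nt5e rests on its low ISC level of 0.198 RPKM. With 1 RPKM added to each value (a pseudocount), the log2 ratios were 6.95 for Enpp3, 6.80 for Ada, 6.23 for Gda and 5.90 for Nt5e. All 10 were called, against a background of 30.5% of 13007 tested genes called higher in villus and 32.3% called lower. The median of the 10 ratios was 36.5-fold, while the median log2 ratio over all tested genes was -0.0932. At q of 0.01 or below all 10 were still called (background 26.7%), and so they were with a 2-fold ratio also required (background 23.4%). Since the genes were selected with this comparison in view, nothing is read from these counts.

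The NTPDase and NPP genes among the 10 had high RNA levels in villus. Enpp3, an NPP of the apical surface, had 298 RPKM in wild-type villus and 1.42 RPKM in ISC, a 209.6-fold ratio. Entpd8, a plasma membrane NTPDase, had 112 RPKM in wild-type villus and 17.3 RPKM in ISC, a 6.44-fold ratio. Its locus entry also covers Noxa1, so reads of that overlap cannot be assigned with certainty. Entpd5, an NTPDase of the endoplasmic reticulum that hydrolyses UDP during glycoprotein folding, had 92.7 RPKM in wild-type villus and 7.18 RPKM in ISC, a 12.9-fold ratio. The authors' deposited table lists q as 0 for these 3 genes, as it does for 9 of the 10. Enpp3 was thus the highest of the 3 in villus and the lowest in ISC.

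Nt5e, which makes adenosine from AMP, had 70.4 RPKM in wild-type villus and 0.198 RPKM in ISC, a 355-fold ratio (q of 0 in the authors' deposited table). Its ISC level was the lowest of the 10 and stood at 0.282% of the villus level. Adora2b, the receptor for the adenosine made there, had 18.1 RPKM in wild-type villus and 0.752 RPKM in ISC, a 24.1-fold ratio (q of 0 in the authors' deposited table). It was the lowest of the 10 in villus, ranking 3930th of 22517 genes by RPKM.

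RNA levels of the enzymes that convert nucleosides and bases were high in villus as well. Ada had 826 RPKM in wild-type villus and 6.40 RPKM in ISC, a 129-fold ratio, and ranked 93rd of all genes in villus against 6994th in ISC. Gda had 304 RPKM in wild-type villus and 3.07 RPKM in ISC, a 99.2-fold ratio. Xdh, which makes urate, had 262 RPKM in wild-type villus and 5.37 RPKM in ISC, a 48.9-fold ratio, and Upp1 had 153 RPKM in wild-type villus and 7.45 RPKM in ISC, a 20.6-fold ratio. All 4 have q of 0 in the authors' deposited table.

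Pnp stood apart with the smallest ratio, 2.31-fold, at 55.9 RPKM in wild-type villus and 24.2 RPKM in ISC (q = 2.48e-07 in the authors' deposited table). It was the highest of the 10 in ISC, where it ranked 2480th of all genes. Its neighbour Pnp2 is a near-identical copy whose entry begins 2728 bases after that of Pnp, and reads of the pair may be split between them. Pnp2 had 80.1 RPKM in wild-type villus and 14.03 RPKM in ISC, a 5.71-fold ratio (q of 0 in the authors' deposited table).

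**Figure D1:**
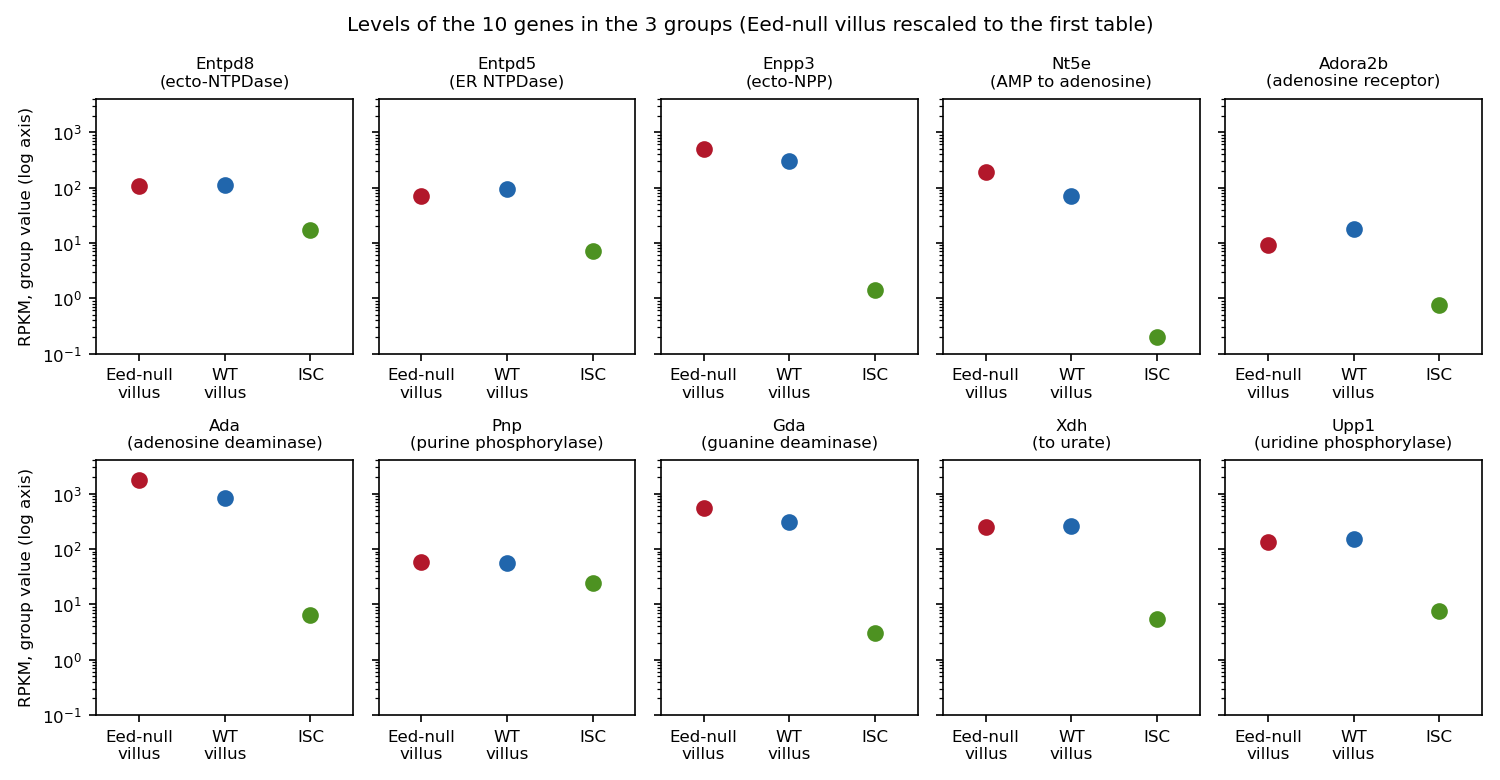
Group RPKM of each of the 10 genes (log axis) in Eed-null villus, wild-type villus and ISC, 1 point per group with no error available; Eed-null values are multiplied by 1.16193 to stand on the scale of the first table. ISC is the lowest in all 10 panels, and the ISC points span 0.198 RPKM (Nt5e) to 24.2 RPKM (Pnp).

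Markers of other cells moved with the comparison of villus and ISC. Of 10 leukocyte markers, 9 were called higher in villus, and their summed level was 122 RPKM in wild-type villus and 25.2 RPKM in ISC. Lymphocytes also express Ada, Nt5e and Pnp. All 6 endothelial markers stood at or below 0.192 RPKM in villus and 0.148 RPKM in ISC, with Cdh5 and Kdr listed at 0 in villus, although Xdh and Nt5e are known in that cell type elsewhere. Of 7 mesenchymal markers Vim alone was tested and was called lower, their sum was 1.72 RPKM in wild-type villus and 7.76 RPKM in ISC, and Lum was listed at 0 in both groups. Tuft cell markers had 5 higher calls among 6, with sums of 37.8 RPKM in wild-type villus and 8.23 RPKM in ISC. Paneth cell markers were called lower in 4 of 4 tested cases, with sums of 3647 RPKM in wild-type villus and 6486 RPKM in ISC. Lyz1 was not tested, since the authors' status for it marks too many reads, and its listed 0 in ISC is no sign of absence. As Lyz1 adds 1021 RPKM to the villus sum and nothing to that of ISC, the 2 sums are not comparable. Goblet cell markers had 3 higher calls and 1 lower among 7, and enteroendocrine markers 1 higher and 4 lower among 6. All 9 dissociation-response genes were called lower in villus, with a summed level of 256 RPKM in wild-type villus and 1261 RPKM in ISC. The part of these other cell types and of handling in the ratios was not tested.

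Loss of Eed came with a call for 4 of the 10 genes. Nt5e, Ada and Gda rose and Adora2b fell. Enpp3 lay just outside the threshold. The other 5 enzymes differed by 1.30-fold or less and were not called. Of 12525 genes tested, the share called higher without Eed was 7.90% and the share called lower was 3.46%. The genes were picked with these values known, and their counts are not evidence about nucleotide metabolism as a whole. Outside the 10, the alkaline phosphatase Akp3 was called lower in Eed-null villus, and the adenosine receptors Adora1 and Adora2a were called higher.

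Nt5e had 167 RPKM in Eed-null villus and 60.5 RPKM in wild-type villus, 2.76-fold higher without Eed (q = 1.64e-07 in the authors' deposited table). This was the largest ratio of the 10, as it was between villus and ISC when no pseudocount was added. Ada had 1546 RPKM in Eed-null villus and 711 RPKM in wild-type villus, 2.17-fold higher without Eed (q = 0.00320 in the authors' deposited table). That level placed Ada 31st of all genes in Eed-null villus. Gda had 479 RPKM in Eed-null villus and 262 RPKM in wild-type villus, 1.83-fold higher without Eed (q = 0.0494 in the authors' deposited table). Enpp3 had 430 RPKM in Eed-null villus and 256 RPKM in wild-type villus, a ratio of 1.68 (q = 0.0521 in the authors' deposited table). Gda and Enpp3 lie on either side of 0.05 with similar ratios, so the threshold separates them by little.

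Adora2b had 7.93 RPKM in Eed-null villus and 15.6 RPKM in wild-type villus, and fell by 0.98 on the log2 scale (q = 0.00434 in the authors' deposited table). Its nearest tested neighbour, Zswim7, begins 771 bases beyond its entry and also fell, with 7.72 RPKM in Eed-null villus and 15.4 RPKM in wild-type villus (q = 0.0312 in the authors' deposited table). The library kit does not mark strand, and whether the pair share reads was not tested.

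The remaining enzymes gave values close to those of the control. Xdh had 213 RPKM in Eed-null villus and 226 RPKM in wild-type villus (q = 0.935), and Pnp had 50.2 and 48.1 RPKM in Eed-null and wild-type villus (q = 0.948, both in the authors' deposited table). Entpd8 had 91.8 RPKM in Eed-null villus and 96.2 RPKM in wild-type villus (q = 0.945 in the authors' deposited table). Entpd5 had 61.5 RPKM in Eed-null villus and 79.8 RPKM in wild-type villus (q = 0.391 in the authors' deposited table). Upp1 had 114 RPKM in Eed-null villus and 132 RPKM in wild-type villus (q = 0.744 in the authors' deposited table). With no spread between libraries, these q-values do not show that the levels were equal.

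The 4 calls did not all hold under stricter rules. At q of 0.01 or below, Nt5e and Ada were called higher and Adora2b lower, with backgrounds of 5.80% and 2.06%. With a 2-fold ratio also required, Nt5e and Ada were left (background 6.60% higher), and Adora2b, at 1.97-fold, was not (background 1.72% lower). Log2 ratios were also centred on the median of genes with at least 1 RPKM in both villus groups (-0.104). They were then 1.57 for Nt5e, 1.22 for Ada, 0.97 for Gda, 0.85 for Enpp3 and -0.87 for Adora2b.

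**Figure D2:**
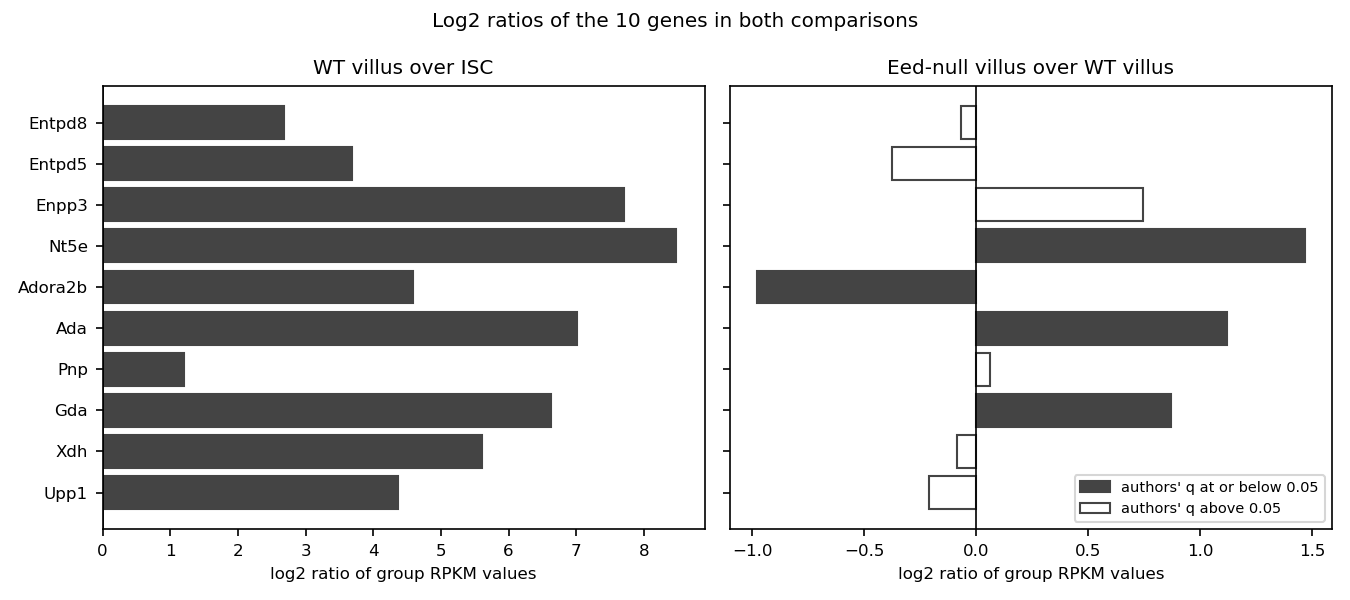
Log2 ratio of group RPKM for the 10 genes, wild-type villus over ISC (left) and Eed-null over wild-type villus (right); the 2 horizontal axes differ, and filled bars have the authors' q at or below 0.05. All 10 bars are filled on the left (1.21 to 8.47), and on the right Nt5e (1.47), Ada (1.12) and Gda (0.87) are filled above 0 and Adora2b (-0.98) below.

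With Eed-null values brought to the scale of the first table, ISC had the lowest level for all 10 genes. Ada, Nt5e, Enpp3, Gda and Pnp were in the order Eed-null villus, wild-type villus, ISC from high to low. Xdh, Entpd5, Entpd8, Adora2b and Upp1 were in the order wild-type villus, Eed-null villus, ISC. For Pnp, Xdh and Entpd8 the 2 villus levels lay within 1.06-fold of each other. Upp1, Entpd5 and Enpp3 were not called between the villus groups either. For all genes but Nt5e, Ada, Gda and Adora2b the order of the 2 villus levels therefore cannot be told apart. Adora2b, the member called lower, had 9.21 RPKM on that scale in Eed-null villus, still 12.3-fold its ISC level. The 2 comparisons share the wild-type villus libraries, so their directions are not independent.

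Among the 10 genes, levels in wild-type villus ran in the order Ada, Gda, Enpp3, Xdh, Upp1, Entpd8, Entpd5, Nt5e, Pnp and Adora2b (first table). In Eed-null villus Nt5e stood above Upp1, Entpd8 and Entpd5, at 167 RPKM against 114, 91.8 and 61.5 RPKM, whereas in wild-type villus it stood below all 3, at 60.5 RPKM against 132, 96.2 and 79.8 RPKM (second table). RPKM is scaled by gene length, so levels of different genes can be set side by side within a group. The places of Pnp and Entpd8 are less certain, since their reads may be shared with Pnp2 and Noxa1. Which neighbours in this order differ beyond the spread of libraries is not known, because no spread is printed.

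Markers of other cells and of gut region also moved with the loss of Eed. Leukocyte markers were lower in 9 of 10 cases, with Gzmb alone called, and summed to 67.6 RPKM in Eed-null villus and 105 RPKM in wild-type villus. Goblet cell markers were higher in 7 of 7 cases, with Muc2, Agr2 and Spink4 called, and summed to 17426 RPKM in Eed-null villus and 11811 RPKM in wild-type villus. Paneth cell markers were higher in 4 of 5 cases, with Ang4 alone called, and summed to 4485 RPKM in Eed-null villus and 3139 RPKM in wild-type villus. Stem cell markers were higher in 6 of 10 cases and summed to 78.6 RPKM in Eed-null villus and 132 RPKM in wild-type villus, with Olfm4 alone called, lower. Of 6 enteroendocrine markers Gcg alone was called, lower, and none of 6 tuft cell markers was called. Of 9 dissociation-response genes Egr1, Nr4a1 and Dusp1 were called higher, and the sums were 238 RPKM in Eed-null villus and 220.0 RPKM in wild-type villus. Of 9 tested enterocyte markers 7 were lower in Eed-null villus and Lct alone was called. Fabp2, for example, had 7122 RPKM in Eed-null villus and 13528 RPKM in wild-type villus without a call (q = 0.126 in the authors' deposited table). Apoa4 was not tested: the authors' status for it marks too many reads, so its listed 0 in wild-type villus is no sign of absence. Mesenchymal, endothelial and red blood cell markers summed to 2.30, 0.797 and 0.202 RPKM in Eed-null villus and 1.48, 0.380 and 0.119 RPKM in wild-type villus. The part of these cell types and of handling in the values of the 10 genes was not tested.

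Genes that differ along the gut were set beside these values after the fall of Fabp6 was known. Of 6 ileal genes 5 were called lower in Eed-null villus (Slc51b, an exporter subunit, was not), and their sum was 666 RPKM in Eed-null villus and 2084 RPKM in wild-type villus. Fabp6, which binds bile acids in ileal enterocytes, had 251 RPKM in Eed-null villus and 1444 RPKM in wild-type villus, and Cubn, the receptor for vitamin B12 bound to intrinsic factor, had 9.69 RPKM in Eed-null villus and 36.2 RPKM in wild-type villus. Of 4 genes of the proximal small intestine, 2 (Cybrd1 and Slc11a2) were called higher and none lower. Slc40a1 (q = 0.108) and Gata4 (q = 0.941, both in the authors' deposited table) were not called. The brush-border genes Akp3 and Lct, not among the 4, were called lower. Cybrd1, a duodenal iron reductase, had 16.7 RPKM in Eed-null villus and 6.64 RPKM in wild-type villus (q = 8.02e-06 in the authors' deposited table). Ada of the mouse is known to be most abundant in the upper gut. The part of gut region in the values of Ada, Nt5e, Gda and Adora2b was not tested.

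The nearest tested gene on each side of every member gave 20 neighbours on build mm9. None was called higher in Eed-null villus and 1, Zswim7, was called lower, against the backgrounds of 7.90% and 3.46%. Snx14, 4657 bases from Nt5e, had 10.2 RPKM in Eed-null villus and 12.0 RPKM in wild-type villus (q = 0.677 in the authors' deposited table). Pkig, 425 bases from Ada, had 57.9 RPKM in Eed-null villus and 59.2 RPKM in wild-type villus (q = 0.984 in the authors' deposited table). Between villus and ISC, 5 of the 20 were called higher in villus and 8 lower. Enpp1, another NPP 61711 bases from Enpp3, was among these 8, with 2.09 RPKM in wild-type villus and 7.01 RPKM in ISC (q = 3.46e-08 in the authors' deposited table). On that build Nt5e spans chr9:88222446-88266927, Ada chr2:163552319-163575913, Gda chr19:21465796-21547151, Enpp3 chr10:24493619-24556001 and Adora2b chr11:62062485-62079954.

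The other genes of nucleotide metabolism were taken from 11 lists drawn up by textbook function, with the 10 genes left out. Of 112 such genes in the tables, 90 were tested between villus and ISC, and 31 (34.4%) were called higher and 39 (43.3%) lower in villus, beside 30.5% and 32.3% of all tested genes. In the Eed-null comparison 91 were tested, and 10 (11%) were called higher and 8 (8.79%) lower, beside 7.90% and 3.46% of all tested genes. Their median log2 ratio was -0.44 between villus and ISC, against -0.09 over all tested genes and 5.10 over the 10 members. The 10 members were picked with their values known, and all were called higher in villus. Leaving them out lowers the share called higher among the other genes, so the contrast with the members is partly set by that choice. Between Eed-null and wild-type villus the median of the other genes was -0.06, against -0.08 over all tested genes.

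Synthesis from small precursors ran opposite to the 10 genes between villus and ISC. Of 12 tested genes of de novo purine synthesis, 11 were called lower in villus and 1, Adss, higher, with a median log2 ratio of -2.84. Impdh2, which commits IMP to guanine nucleotides, had 19.3 RPKM in wild-type villus and 201 RPKM in ISC, and Paics, which acts mid-pathway, had 4.92 RPKM in wild-type villus and 49.3 RPKM in ISC (q of 0 for both in the authors' deposited table). Ppat, the first committed enzyme, had 0.983 RPKM in wild-type villus and 9.87 RPKM in ISC, and Prps2, which makes the ribose phosphate donor, had 3.52 RPKM in wild-type villus and 27.3 RPKM in ISC. Ppat and Paics share a locus entry. Of 5 de novo pyrimidine genes 4 were called lower in villus, among them Cad, the enzyme of the opening steps, with 1.82 RPKM in wild-type villus and 15.9 RPKM in ISC, and Ctps, which makes CTP, with 2.26 RPKM in wild-type villus and 21.4 RPKM in ISC.

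Genes that rebuild nucleotides from salvaged nucleosides and bases went both ways between villus and ISC. Of 5 tested kinases and phosphoribosyltransferases, Aprt alone was called higher in villus, with 226 RPKM in wild-type villus and 89.4 RPKM in ISC. Dck and Dguok, the deoxynucleoside kinases, were called lower, and Adk and Hprt were not called. The shares of the 5 were 20% higher and 40% lower, beside 30.5% and 32.3% of all tested genes. None of the 5 was called in Eed-null villus. Ada, Gda, Xdh and Pnp, all called higher in villus, were left out of the deaminase and catabolism list. Of its 12 other genes tested between villus and ISC, Pnp2 was called higher and 6 lower. Adat1 in that list deaminates tRNA rather than nucleosides. Mtap, which salvages adenine from methylthioadenosine, had 0.877 RPKM in wild-type villus and 8.22 RPKM in ISC (q of 0 in the authors' deposited table).

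In Eed-null villus, 3 of the 11 tested genes of that list were called higher, Gmpr, Lacc1 and Mtap, and 1, Ahcy, lower. Gmpr, a GMP reductase, had 1.37 RPKM in Eed-null villus and 0.191 RPKM in wild-type villus (q = 0.000106 in the authors' deposited table). Lacc1, which deaminates and phosphorolyses purine nucleosides, had 2.68 RPKM in Eed-null villus and 0.550 RPKM in wild-type villus (q = 1.19e-06 in the authors' deposited table). Mtap had 3.01 RPKM in Eed-null villus and 0.755 RPKM in wild-type villus (q = 9.65e-06 in the authors' deposited table), and its entry ends 93.4 kb from that of Cdkn2a on chromosome 4. The 3 genes called higher stood at less than 1 RPKM in wild-type villus, far below Ada and Gda. Ahcy had 46.0 RPKM in Eed-null villus and 85.3 RPKM in wild-type villus (q = 0.00180 in the authors' deposited table).

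The relatives of Enpp3, Nt5e, Entpd5 and Entpd8 went both ways. Of 9 other tested genes of the ectonucleotidase list, 4 were called higher in villus (Entpd2, Entpd7, Enpp7 and Cant1) and 4 lower (Entpd6, Enpp1, Enpp4 and Enpp5). The list goes by family and is not limited to enzymes of the cell surface. Enpp7, the alkaline sphingomyelinase of the brush border, belongs to the NPP family but acts on lipids; it had 398 RPKM in wild-type villus and 2.34 RPKM in ISC, a 170-fold ratio (q of 0 in the authors' deposited table). In Eed-null villus it was the 1 gene of these 9 called, with 180 RPKM in Eed-null villus and 342 RPKM in wild-type villus (q = 0.00283 in the authors' deposited table), opposite to Nt5e.

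Alkaline phosphatases also remove phosphate from nucleotides in the gut lumen, and they share a list here with other surface phosphatases and with enzymes that split NAD. Of 6 tested genes of this list, 4 were called higher in villus than in ISC (Alpi, Akp3, Alppl2 and Bst1) and 1 lower. The lower one was Acpp, an acid phosphatase, with 5.05 RPKM in wild-type villus and 11.6 RPKM in ISC (q = 2.92e-06 in the authors' deposited table). Akp3 had 1006 RPKM in wild-type villus and 4.37 RPKM in ISC, and 102 RPKM in Eed-null villus against 865 RPKM in wild-type villus in the second table (q of 0 for both in the authors' deposited table). Bst1, a membrane enzyme that splits NAD, had 211 RPKM in wild-type villus and 1.04 RPKM in ISC, and 95.8 RPKM in Eed-null villus against 181 RPKM in wild-type villus in the second table (q = 0.00191 in the authors' deposited table). Of 7 tested genes of this list, 3 were called lower in Eed-null villus (Akp3, Alppl2 and Bst1) and none higher. Alpi was not called, with 633 RPKM in Eed-null villus and 986 RPKM in wild-type villus (q = 0.224 in the authors' deposited table). Of 9 tested intracellular nucleotidase genes none was called lower and 1, Nt5c1a, was called higher in Eed-null villus, at 0.441 RPKM; it is listed at 0 in wild-type villus. Between villus and ISC 3 of 8 were called lower and none higher, led by Nt5c3b with 1.44 RPKM in wild-type villus and 14.9 RPKM in ISC.

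Receptors for adenosine changed in different directions in Eed-null villus. While Adora2b fell, Adora1, an inhibitory receptor, had 0.778 RPKM in Eed-null villus and 0.0752 RPKM in wild-type villus (q = 0.00111 in the authors' deposited table). Adora2a, like Adora2b a receptor that raises cyclic AMP, had 1.59 RPKM in Eed-null villus and 0.417 RPKM in wild-type villus (q = 0.000248 in the authors' deposited table). Adora2b was still the highest of the 4 receptors in Eed-null villus, at 7.93 RPKM. Dpp4, the surface peptidase that anchors Ada in humans, had 207 RPKM in Eed-null villus and 247 RPKM in wild-type villus (q = 0.753 in the authors' deposited table). Between villus and ISC, Dpp4 was called higher, with 287 RPKM in wild-type villus and 18.3 RPKM in ISC, and Adora1 lower.

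Among receptors for ATP and other nucleotides, 4 of 6 tested were called higher in villus (P2rx4, P2ry1, P2ry2 and P2ry4) and P2ry6 lower. P2ry2, a receptor for ATP and UTP, had 9.36 RPKM in wild-type villus and 0.544 RPKM in ISC, and P2ry6, a receptor for UDP, had 0.596 RPKM in wild-type villus and 4.87 RPKM in ISC. In Eed-null villus P2ry6 was the 1 gene of 7 called, with 2.34 RPKM in Eed-null villus and 0.513 RPKM in wild-type villus (q = 2.33e-05 in the authors' deposited table).

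Of 10 tested nucleoside and urate carriers, 6 were called higher in villus than in ISC and 2 lower. The concentrative carriers Slc28a1, which prefers pyrimidines, and Slc28a2, which prefers purines, were 82.3-fold and 60.8-fold higher in wild-type villus than in ISC, and Slc28a3 was 2.17-fold higher. Of the equilibrative carriers, Slc29a1 and Slc29a2 were called lower in villus, and Slc29a3 and Slc29a4 were not called (q = 0.296 and 0.768 in the authors' deposited table). In Eed-null villus 1 of 9 tested carriers was called higher and 1 lower. Slc28a2 rose, with 97.1 RPKM in Eed-null villus and 53.2 RPKM in wild-type villus (q = 0.00388 in the authors' deposited table). Slc28a1 had 56.8 RPKM in Eed-null villus and 84.0 RPKM in wild-type villus (q = 0.111 in the authors' deposited table). Panx1, a channel that releases ATP, fell, with 14.5 RPKM in Eed-null villus and 24.2 RPKM in wild-type villus (q = 0.0218 in the authors' deposited table). Abcg2 and Slc2a9, which carry urate, were called higher in villus than in ISC and not called in the Eed-null comparison.

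The pyrimidine partners of Upp1 were higher in villus in 9 of 13 tested cases and lower in 4. Tymp, thymidine phosphorylase, had 95.6 RPKM in wild-type villus and 1.73 RPKM in ISC, and Cda, cytidine deaminase, had 298 RPKM in wild-type villus and 51.1 RPKM in ISC. The kinases Uck2, Tk1 and Tk2 and the deaminase Dctd were the 4 called lower. Dpyd, which degrades uracil, the product of Upp1, was the 1 gene of the 13 called in Eed-null villus, with 37.8 RPKM in Eed-null villus and 67.6 RPKM in wild-type villus (q = 0.00445 in the authors' deposited table).

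**Figure D3:**
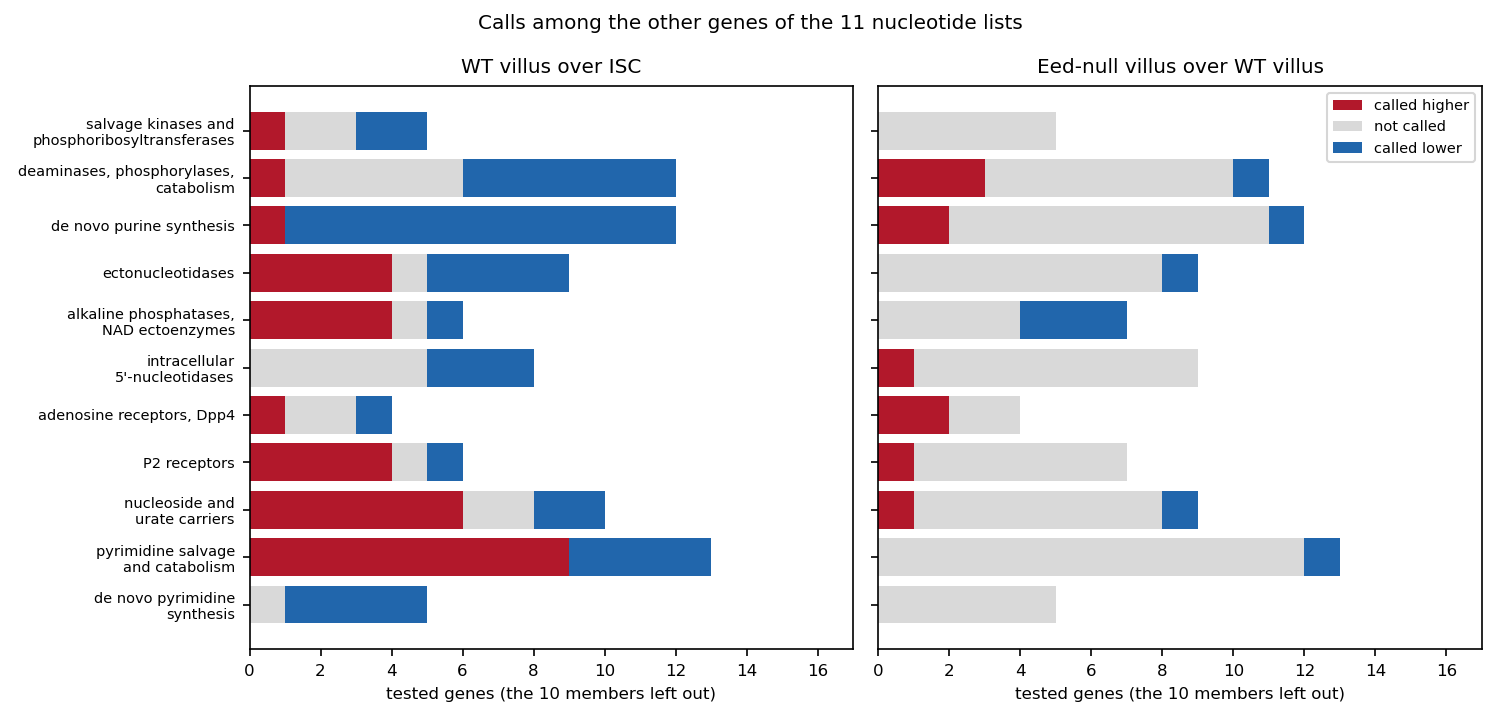
Tested genes of each of the 11 lists, with the 10 members left out, that were called higher (red), called lower (blue) or not called (grey) for wild-type villus over ISC (left) and Eed-null over wild-type villus (right). De novo purine synthesis has 11 of 12 genes lower in villus, while 9 of 13 pyrimidine salvage and catabolism genes are higher.

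**Figure D4:**
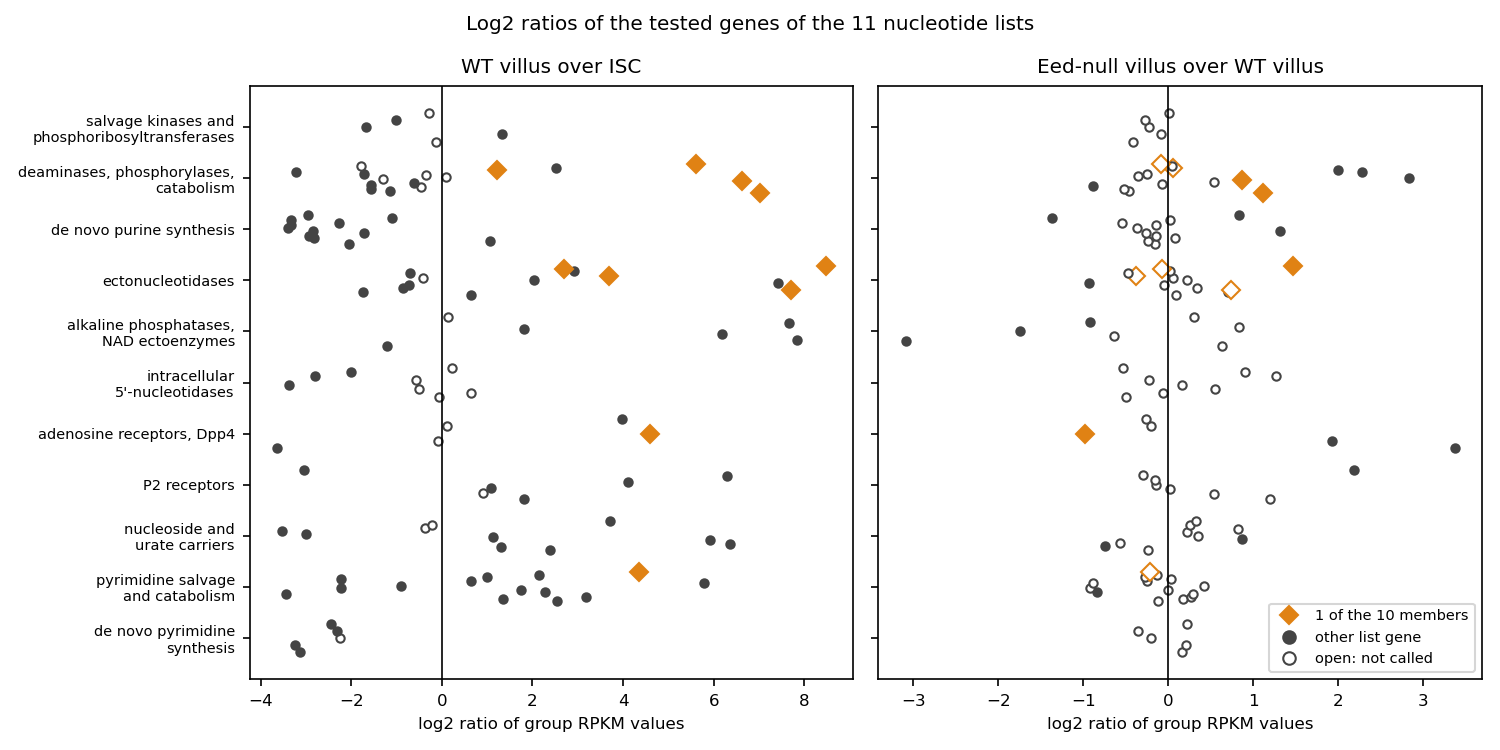
Log2 ratio of every tested gene of the 11 lists with both groups above 0, wild-type villus over ISC (left) and Eed-null over wild-type villus (right); diamonds are the 10 members, circles other genes, and open symbols were not called. The horizontal axes differ, and Nt5c1a, listed at 0 in wild-type villus, is not drawn on the right. The members lie between 1.21 and 8.47 on the left and between -0.98 and 1.47 on the right.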

How the data were processed

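Per the labels' protocols, RNA libraries came from the TruSeq V2 kit, which keeps no strand information, and single-end reads of 75 bp were sequenced. The 14 chromatin libraries were not used here. The authors deposited 2 tables of RPKM values, each normalized by itself, with 1 value per group and gene. The second does not state its unit; its wild-type villus values stand in a constant ratio to those of the first (1.16192 to 1.16194 over 10583 genes), and they were taken as RPKM. Build mm9 and the tools TopHat2 2.0.6, Cufflinks 2.0.1, Bowtie and Cuffdiff appear in the submitters' processing notes, without roles, and the annotation was not given in the sources used here. Each p-value and q-value is the authors', per the file headers; recomputing a Benjamini-Hochberg adjustment from their p-values gave their q to within 2.12e-06. A q listed as 0 is printed as it stands.

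No new test was run. Ratios are quotients of deposited RPKM with no pseudocount, made with Python 3.11.15 and pandas 2.3.3, and counting was tested on simulated data. The members, lists and markers were chosen with earlier results of these data known, and the regional genes and the neighbours after these values were seen. Genes named are all members, up to 4 called genes per list and comparison with the largest ratios, and others chosen after their values were seen. Of 115 list symbols beside the members, 112 were found. Genes that are low in 1 group, such as Adora1, may have passed the authors' minimum only through the other group. The labels describe the replicates as biological. Alternatives were a stricter q, a 2-fold minimum, 1 RPKM in a group, pseudocounts of 1 and 0.1 RPKM, and median centring.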

Additional observations from a re-analysis of the deposited data

How the results depend on the processing

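All 10 members stayed called higher in villus under each alternative that keeps all of them, and 9 were called when Entpd8, which overlaps Noxa1, was left out. In the Eed-null comparison 0 members were called lower when a 2-fold ratio was also required, since Adora2b missed it. Genes called lower over the whole table numbered 258 at q of 0.01 or below, against 433 at 0.05. Centring used the median log2 ratio of genes with at least 1 RPKM in both groups. In the Eed-null comparison it turned Xdh and Entpd8, neither called, to 0.0173 and 0.0371. That median was -0.104, against -0.07585 over all tested genes and -0.08665 for Xdh before centring. The other 58 of 60 alternative log2 ratios of members kept their sign. Of 88 alternative counts for single lists 83 stayed within 1.5 times. The 5 others were 2 ectonucleotidase genes lower in villus at q of 0.01 (4 at 0.05), 1 de novo purine gene higher (2 at 0.05) and 0 carriers lower (1 at 0.05) in Eed-null villus at that q, and, with 1 RPKM required in a group, 0 nucleotidases (1 without) and 1 adenosine receptor (2 without) higher in Eed-null villus. As deposited, without rescaling, 4 members rather than 5 were highest in Eed-null villus, Pnp being the exception. No paired analysis was possible because the tables print 1 value per group, and for the same reason no library could be left out. What depth limits cannot be stated, since no counts are given.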
